A study of Mus musculus with 504 samples.

Results

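The collagen chain genes are the rows of the counts table whose mouse symbol has the form Col, a number, a and a number, which gave 44 genes of the 55450 in the table. The rule used names and no measured value. By the kind of assembly their proteins form, the 44 divide into 11 fibrillar chains, 6 chains of the basement membrane network (type IV), 3 of the basement membrane zone (types VII, XV and XVIII), 6 of beaded filaments (type VI), 9 fibril-associated chains, 3 short-chain network collagens, 4 transmembrane collagens and 2 others. A mean of 10 CPM (counts per 1000000 counts) or more in at least 1 cell population was reached by 34 of the 44, and 10 stayed below it in each population. All 44 entered the test over all populations.

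Collagens are triple helices wound from chains of one or several genes, and they are secreted, trimmed and crosslinked outside the cell. Fibrillar types I, III and V form the fibres of connective tissue and in a mammary tumour are known mainly as products of fibroblasts, while type IV forms the sheet on which epithelial cells, myoepithelial cells and endothelium rest. Types II, IX and XI are the classical cartilage collagens, and type VI builds beaded filaments around mesenchymal cells.

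The cells came from mammary tumours of mice carrying MMTV-PyMT, in which a viral promoter active in mammary epithelium drives an oncogene. All animals also carried MMTV-Flpo, which turns on mCherry in tumour cells through the reporter RC::FrePe, and a tamoxifen-dependent Cre that switches those cells from mCherry to GFP for good. The Cre was driven by Tnc (Tnc-CreERT2, 5 animals named TENA) or by Cdh2 (Cdh2-CreERT2, 5 animals named Cdh), so that GFP records that the driver was on at some time after tamoxifen and not that it was on at collection. Tamoxifen, at 2 mg a dose and 2 doses a week, was given to each animal from week 9 until week 13 or 14, so no group was without it. Cells were sorted straight from tumours per the growth protocol, although another label calls them cell lines from tumours.

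In the Tnc line 8 populations were sorted by colour and by surface EpCAM, an epithelial adhesion protein. P18 was mCherry high and EpCAM high (55 libraries of 5 animals), P17 mCherry-positive and EpCAM high (11 of 3) and P05 mCherry-positive and EpCAM-negative (32 of 5). P22 was positive for both colours and EpCAM high (50 of 5). The GFP-positive gates were P09 (GFP high, EpCAM medium, 48 of 5), P16 (EpCAM medium, 26 of 4), P10 (EpCAM low, 25 of 4) and P15 (EpCAM-negative, 12 of 3). The series text lists the GFP high, EpCAM medium gate under the number P18, which it also gives to the mCherry high, EpCAM high gate, and lists no gate under P09. The labels of each sample settle the numbers, with GFP negative, mCherry high and EpCAM high for P18 and GFP high, mCherry negative and EpCAM medium for P09. They give P09 and P16 the same levels, and P17 and P18, so within each pair the gates differ only by the series text. In the Cdh2 line the libraries were P18 (50 of 5 animals), P15 (16 of 3) and P05 (10 of 1, Cdh1725), with the same gates.

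Each library was a pool of 5 cells, and the 335 libraries labelled as having passed quality control held 313655 to 27849014 counts. Their counts were summed into 43 values, 1 for each animal and population, and levels below are CPM of these sums with TMM factors (0.57 to 2.53), as mean ± SD over animals. CPM of single pools carry no such factor. Of the 2 sequencing lanes, the first held 4 Tnc animals and the second TENA2524 and all Cdh2 animals, so line and lane cannot be told apart in comparisons between lines. In a pool, fewer cells of a type and less RNA per cell cannot be told apart. The summed level of 10 epithelial markers was 9706 to 22688 CPM over the Tnc P18 sums, 135 to 1655 over P05 and 29.4 to 231 over P15.

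**Figure D1:**
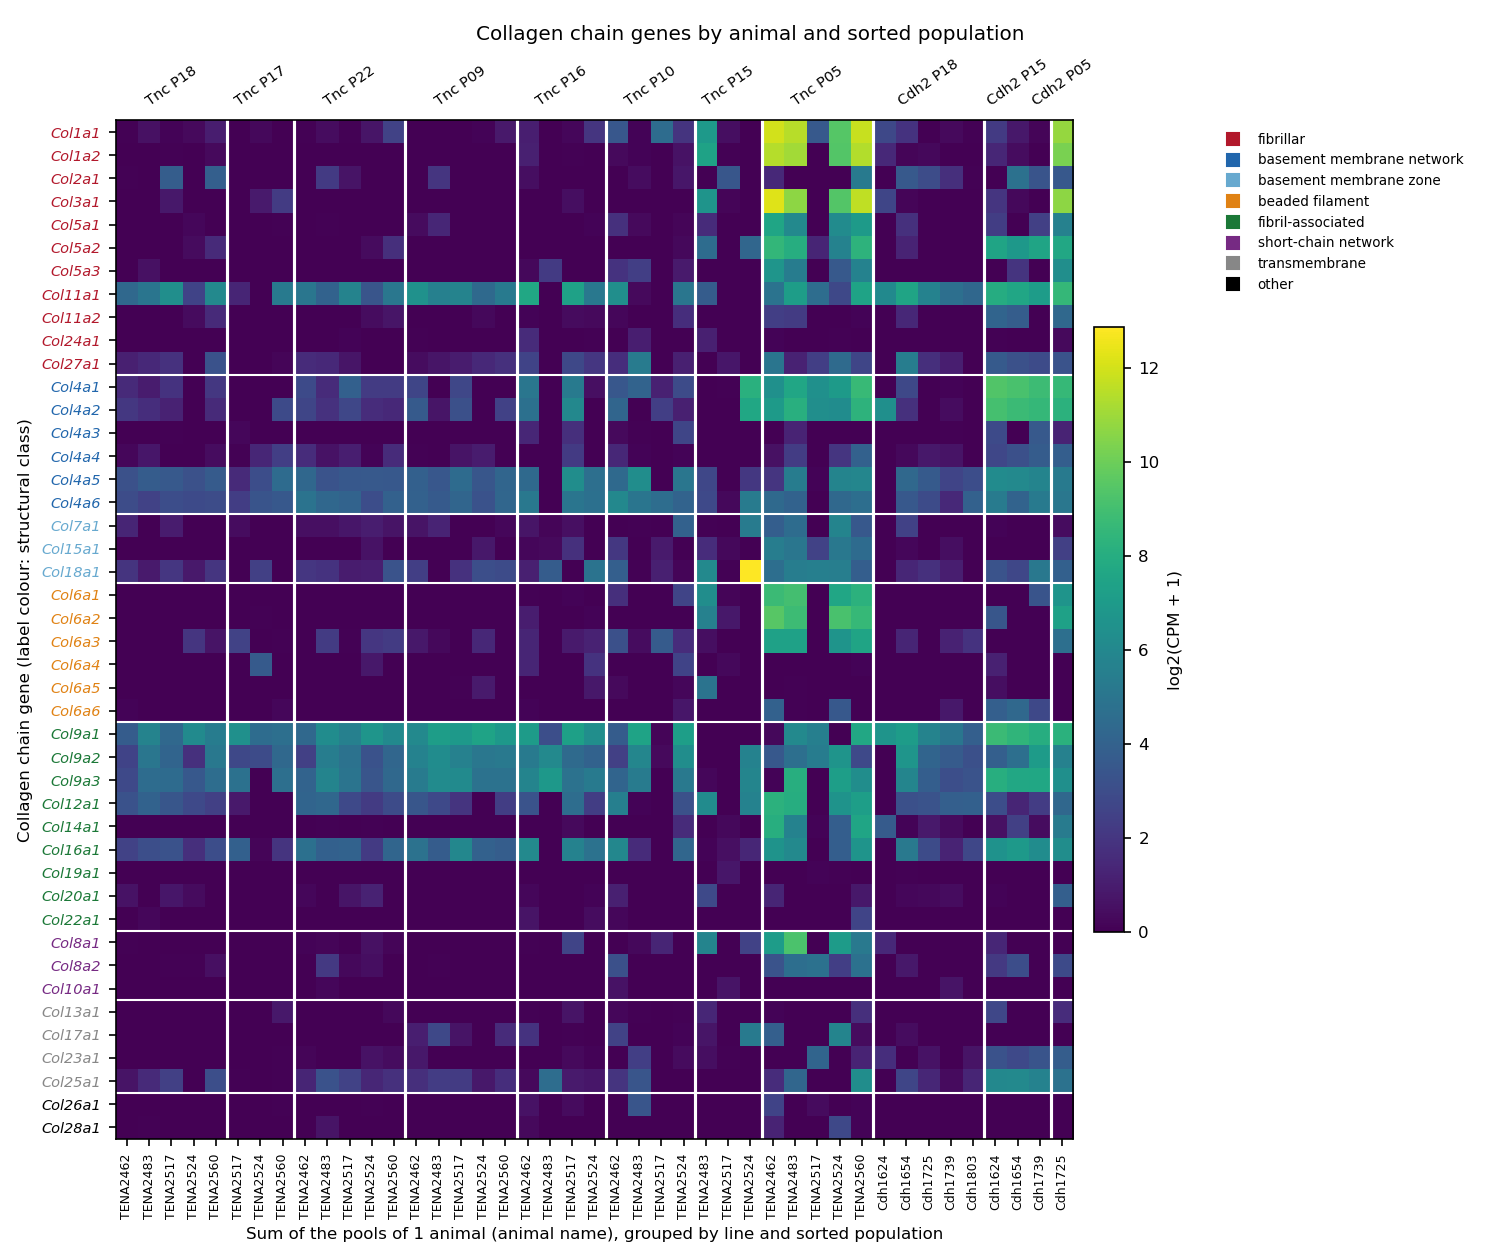
Heat map of log2(CPM + 1) of the 44 collagen chain genes (rows, label colour by class) in the 43 sums (columns, 1 animal each, grouped by line and population). Type I, III and V chains, Col6a1, Col6a2 and Col6a3 are bright in the P05 columns except that of TENA2517, and Col4a1, Col4a2, Col9a1 and Col9a3 in Cdh2 P15.

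The class of collagen that dominated differed between populations. Per kilobase of exon, which allows genes to be compared, fibril-associated chains made up 70.6% of all collagen in Tnc P18 (58.0 to 86.2% over the 5 animals) and 84.0% in P09 (74.8 to 90.4%). Fibrillar chains made up 54.1% in Tnc P05, with a range of 6.02 to 80.0% over 5 animals. In Cdh2 P15 the network chains of type IV held 43.0% (39.5 to 44.8%, 3 animals) and the fibril-associated chains 43.8% (41.6 to 47.0%). In CPM, the sum over the 44 genes averaged 166 ± 64.4 in Tnc P18 and 8461 ± 6031 in Tnc P05 (n = 5 animals each). It averaged 2346 ± 329.6 in Cdh2 P15 (n = 3) and was 7126 in the single Cdh2 P05 animal. The lowest Tnc P05 animal had 387 and the highest P18 animal 239.

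**Figure D2:**
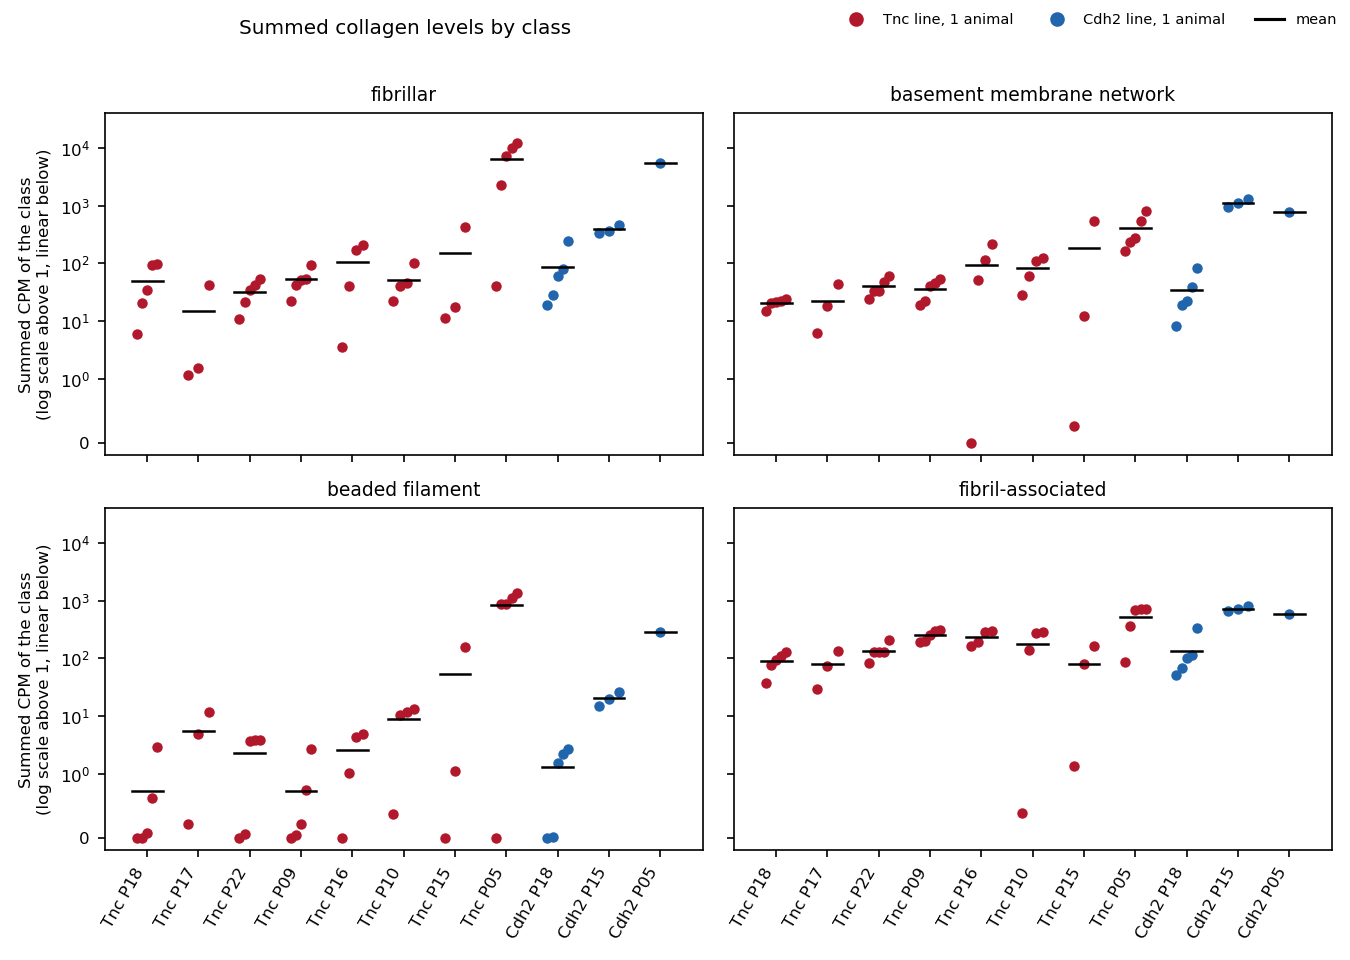
Summed CPM of 4 collagen classes by population, with 1 point for each animal and the mean as a line, on an axis that is logarithmic above 1 and linear below. The fibrillar sum of Tnc P05 runs from 39.8 to 12248 CPM, and the type IV sums of Cdh2 P15 (943 to 1312) lie above those of Cdh2 P18 (8.14 to 84.2).

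Types I and III carried most of the fibrillar RNA of mCherry-positive, EpCAM-negative P05 cells. Col1a1 (ENSMUSG00000001506, chromosome 11, 94936224 to 94953042, GRCm38), the α1 chain of type I, measured 4014, 2888, 11.2, 716 and 3531 CPM in TENA2462, TENA2483, TENA2517, TENA2524 and TENA2560. In P18 of the same animals, in that order, it measured 0.0589, 0.479, 0.0888, 0.242 and 1.07 CPM. The groups did not overlap, and TENA2517 was far below the other P05 animals. The means were 2232 ± 1769 and 0.387 ± 0.415 CPM (n = 5 each), a log2 fold change of 12.89 ± 2.15 (SE; edgeR quasi-likelihood test, adjusted p = 0.0107), higher in 5 of 5 animals.

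Col1a2 (chromosome 6, 4504814 to 4541544), the α2 chain of type I, measured 2785, 2124, 0, 687 and 2650.2 CPM in P05 of the same animals and averaged 0.0707 ± 0.107 in P18 (log2 fold change 13.54 ± 2.74, edgeR adjusted p = 0.0325). Col3a1 (chromosome 1, 45311538 to 45349706), the type III chain that mixes with type I in fibres, measured 4729.8, 1644, 0, 685 and 3209 CPM against 0.153 ± 0.341 in P18 (15.26 ± 3.24, edgeR adjusted p = 0.0325). Both were at 0 in P05 of TENA2517, and so their groups overlapped. The 250 bases before the RefSeq start of each gene (GRCm38.p6, plus strand, 5′ to 3′) are shown because both moved together and had the highest P05 levels after Col1a1, with capitals for GGGCGG (the GC box), CCAAT and TATAAA.
Col1a2, chr6:4505368-4505617: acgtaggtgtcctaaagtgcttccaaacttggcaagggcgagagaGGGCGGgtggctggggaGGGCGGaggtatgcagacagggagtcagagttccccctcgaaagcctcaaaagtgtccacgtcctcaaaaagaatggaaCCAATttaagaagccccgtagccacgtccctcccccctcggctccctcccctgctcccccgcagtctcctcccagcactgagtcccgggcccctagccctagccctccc
Col3a1, chr1:45311288-45311537: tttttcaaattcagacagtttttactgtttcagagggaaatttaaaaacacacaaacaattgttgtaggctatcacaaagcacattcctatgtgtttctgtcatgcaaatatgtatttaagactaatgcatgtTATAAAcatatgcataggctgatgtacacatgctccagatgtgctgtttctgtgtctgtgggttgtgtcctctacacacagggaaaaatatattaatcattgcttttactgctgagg
The Col1a2 window holds GGGCGG 2 times, at -205 and -188 from the start, and CCAAT at -109, and it is 62% G and C. The Col3a1 window holds TATAAA at -117 and is 35.2% G and C.

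Type V chains, which take part in setting the width of type I fibres, were high in the same animals. Col5a2 (chromosome 1, 45374321 to 45503282) measured 364, 256, 1.52, 51.2 and 319 CPM over the 5 animals and averaged 0.429 ± 0.802 in P18, higher in 5 of 5 animals (log2 fold change 11.94 ± 1.83, edgeR adjusted p = 0.0107). Col5a1 averaged 90.3 ± 70.5 CPM against 0.0314 ± 0.0703 (adjusted p = 0.0704). Col5a3 averaged 41.2 ± 40.4 against 0.103 ± 0.222 (10.20 ± 2.02, edgeR adjusted p = 0.0515). Neither of these passed the threshold of 0.05, and both were at 0 in TENA2517. Col11a1, a type XI chain of cartilage fibrils, averaged 75.2 ± 78.1 CPM in P05 and 40.2 ± 31.7 in P18 (0.58 ± 1.48, edgeR adjusted p = 0.970). Col27a1 averaged 12.5 ± 12.8 and 2.81 ± 3.33 CPM (edgeR adjusted p = 0.545).

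Of the 6 beaded filament chains, Col6a1, Col6a2 and Col6a3 were high in the same 4 animals. Col6a2 (chromosome 10, 76595762 to 76623630) measured 739, 448, 0, 582 and 396 CPM in P05 and had 0 counts over the 5 P18 sums, a log2 fold change of at least 15.36 with a floor of 3 counts over P18 (edgeR adjusted p = 0.0232). Col6a1 (chromosome 10, 76708792 to 76726168) measured 439.6, 516, 0, 197 and 307 CPM and had 0 counts in P18 (at least 14.93, edgeR adjusted p = 0.0442). Col6a3, which joins both in the classical type VI trimer, averaged 122 ± 74.8 CPM against 0.705 ± 1.26 (8.23 ± 2.56, edgeR adjusted p = 0.129). Col6a4 and Col6a5 reached at most 0.0996 and 0.0385 CPM in P05, and Col6a6 measured 15.0, 0.0385, 0, 10.6 and 0 CPM. Floors and ratios of pooled counts cover counting error only, since reads carry no molecular identifiers.

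Other classes held single genes that rose. Col14a1 (chromosome 15, 55307750 to 55520803), a fibril-associated collagen of dense connective tissue, measured 270.4, 51.6, 0.0947, 13.3 and 189 CPM in P05 and had 0 counts in P18 (at least 13.40, edgeR adjusted p = 0.0277). The groups did not overlap, but only by 1 count in P05 of TENA2517. Col15a1, a proteoglycan collagen at the basement membrane, measured 42.2, 32.4, 4.74, 34.9 and 21.3 CPM, with 1 count in P18 (log2 ratio of pooled counts 12.94, 95% exact interval 10.46 to 18.24, edgeR adjusted p = 0.0465). Col8a1, a short-chain network collagen, measured 136, 593, 0, 134 and 36.4 CPM against 0.0160 ± 0.0257 (12.95 ± 2.75 fitted, edgeR adjusted p = 0.0325). One pool, R7 of TENA2483, held 62.8% of the P05 counts of Col8a1.

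In all, 9 of the 44 were called higher and 0 lower in P05, where 0.352% of the 33768 genes tested were called higher. By class the 9 were 4 of 11 fibrillar, 2 of 6 beaded filament, 1 of 9 fibril-associated, 1 of 3 basement membrane zone, 1 of 3 short-chain and 0 of 6 type IV chains. The median log2 fold change was 4.97 over the 44 (6.80 over the 39 with more than 3 counts in a group, with genes at or under 3 counts in 1 group at their bounds) and -0.15 over all genes (-0.08 with bounds). The P05 sums all lay above the P18 sums for 7 members (Col1a1, Col4a1, Col4a2, Col8a2, Col14a1, Col15a1 and Col18a1), against 1.19% of all genes. In TENA2517 the counts of Col1a1, Col4a1, Col4a2, Col14a1 (1 count), Col15a1 and Col18a1 all came from pool R1. The calls rest on few animals. Members called by edgeR numbered 0 without TENA2462, 0 without TENA2524, 1 (Col1a1) without TENA2483 and 1 (Col5a2) without TENA2560. They numbered 7 without TENA2517 and 0 when P05 and P18 alone were fitted. Without TENA2524 the Tnc animals were all of the first lane, while the Cdh2 sums, of the second lane, stayed in the fit. Col1a1 kept a log2 fold change of 11.48 or more over all 21 alternatives tried.

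**Figure D3:**
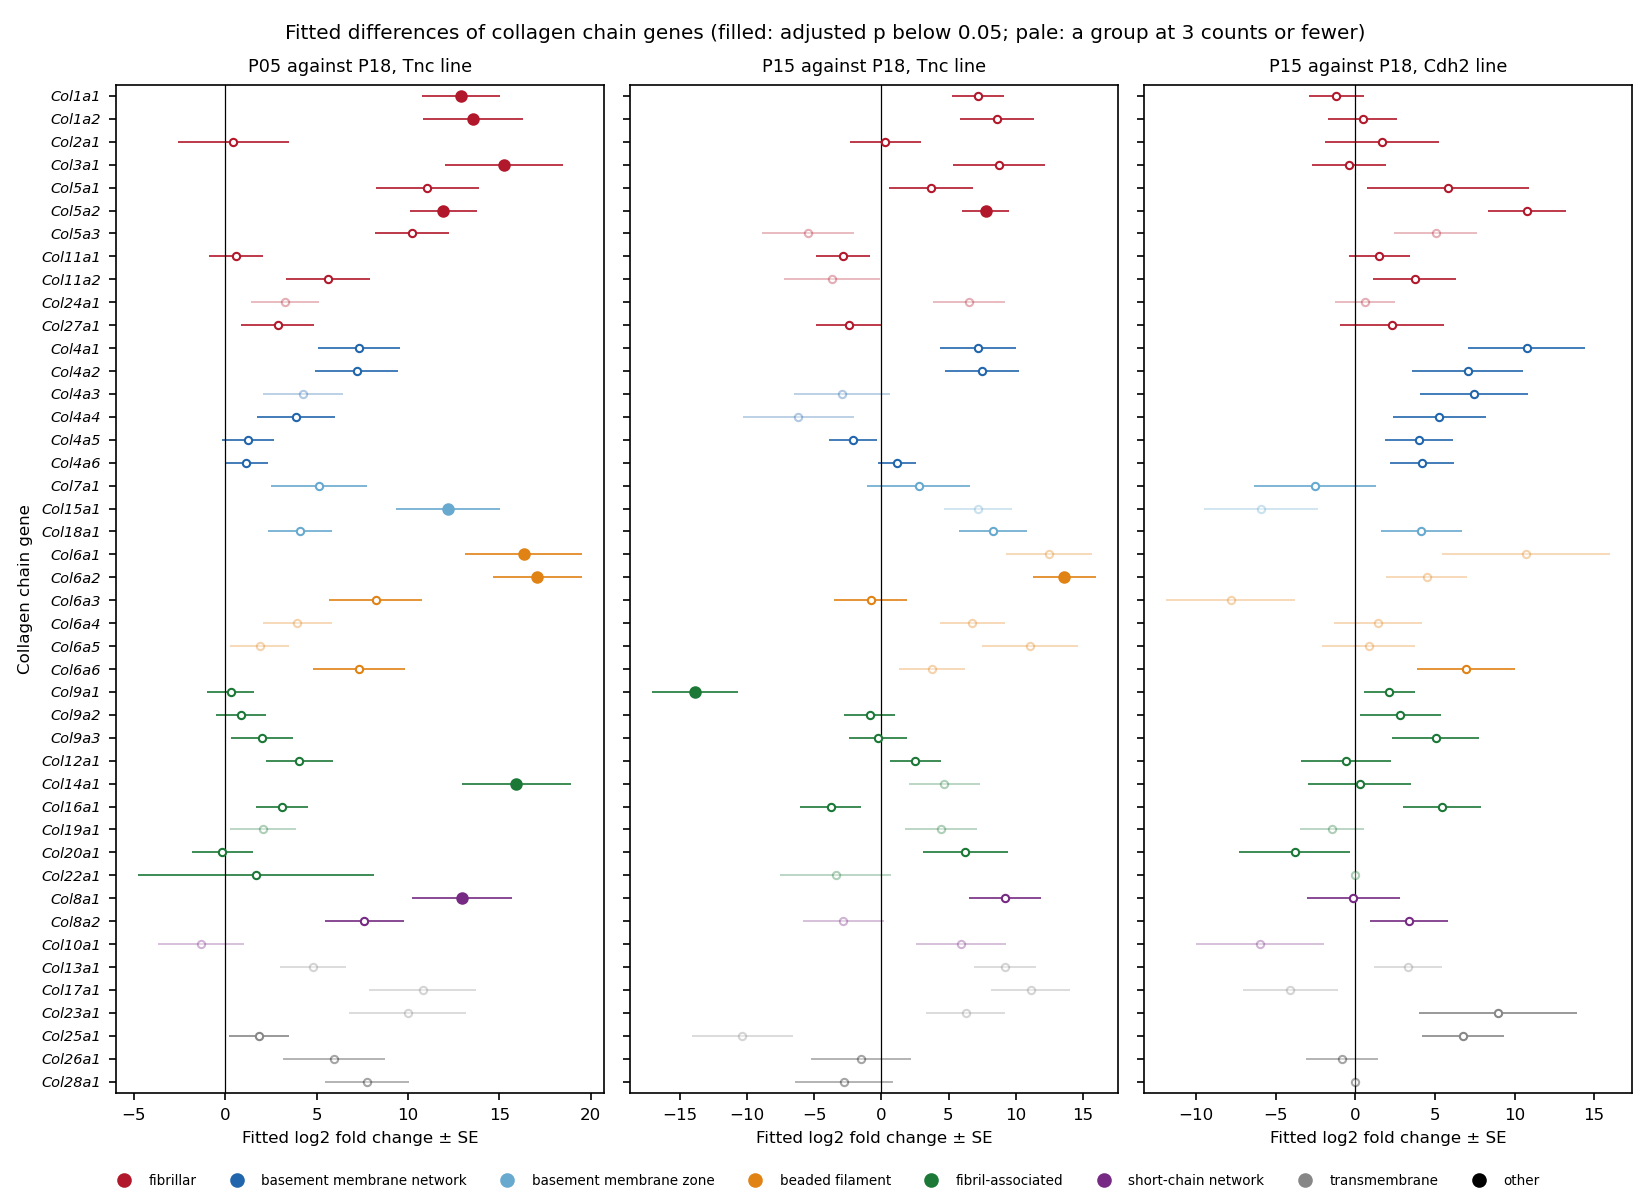
Fitted log2 fold changes (points) of the collagen chain genes in 3 comparisons against P18, coloured by class. Bars are standard errors derived from the test statistic, and open points are drawn pale where a group has 3 counts or fewer. Filled points have an edgeR adjusted p below 0.05 and number 9 in Tnc P05, 3 in Tnc P15 and 0 in Cdh2 P15.

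Of the 6 type IV chains, Col4a1 and Col4a2 lay above P18 in each P05 sum without passing. Col4a1 (chromosome 8, 11198423 to 11312826), the α1 chain found in all basement membranes, measured 87.6, 197, 85.7, 126 and 399 CPM in P05 and averaged 1.76 ± 1.30 in P18 (7.31 ± 2.26, edgeR adjusted p = 0.127). Its partner Col4a2 (chromosome 8, 11312805 to 11449287) measured 127, 277, 80.3, 75.1 and 322 CPM against 1.74 ± 1.19 (7.18 ± 2.29, edgeR adjusted p = 0.139). Unlike Col1a2, Col3a1, Col6a1 and Col6a2, both chains were high in TENA2517, at 85.7 and 80.3 CPM. There both came from pool R1 alone (268 and 251 CPM), with R5 and R6 at 0. That pool had the endothelial marker Pecam1 at 85.3 CPM. In the other P05 pool with Pecam1 at 10 CPM or more (R12 of TENA2462, 55.7 CPM), Col4a1 and Col4a2 were at 0. Over all 335 pools, 2 of the 73 with Col4a1 at 10 CPM or more had Pecam1 at that level. The part of endothelial cells was not tested. Col18a1, the source of endostatin, measured 24.5, 43.2, 46.1, 44.1 and 13.2 CPM against 2.14 ± 1.13 (edgeR adjusted p = 0.296), and Col8a2 measured 8.67, 24.0, 26.8, 4.16 and 26.6 against 0.109 ± 0.188 (edgeR adjusted p = 0.0956). The X-linked pair Col4a5 (31.7 ± 28.3 CPM in P05, 10.4 ± 2.11 in P18) and Col4a6 (15.8 ± 9.32 and 6.44 ± 0.957) overlapped P18 and did not pass (edgeR adjusted p = 0.757 and 0.708).

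Of the other members, Col12a1, which coats type I fibres, measured 311, 257, 0, 96.2 and 145 CPM in P05 against 8.91 ± 4.33 in P18 (edgeR adjusted p = 0.329). Col16a1, a minor fibril-associated chain, averaged 54.5 ± 45.7 against 6.07 ± 2.46 (edgeR adjusted p = 0.343). Col7a1, the anchoring fibril chain of skin, averaged 20.1 ± 20.7 CPM in P05 and 0.498 ± 0.693 in P18. Col17a1, a hemidesmosome protein of basal epithelium, averaged 13.8 ± 23.8 CPM with 0 counts in P18 (at least 10.01, edgeR adjusted p = 0.0866). Counting the 9 called genes, 26 members were higher and 0 lower at an unadjusted p below 0.05, against 13.3% of all genes in either direction. DESeq2 called 20 higher and 0 lower, with 14.4% of all genes.

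P05 pools differed in the collagens they held. Of the 32 Tnc P05 pools, 16 had Col1a1 at 10 CPM or more, 7 had Col9a1 or Col11a1 at that level without Col1a1, and 9 had none of these. Of the 16, 8 also had Col9a1 or Col11a1 at 10 CPM or more and 8 did not. Col1a1 ranged up to 19096 CPM over the pools with a median of 10.6. Pools with Col1a1 came from all 5 animals: 4 of 6 in TENA2462, 4 of 10 in TENA2483, 1 of 3 in TENA2517, 2 of 5 in TENA2524 and 5 of 8 in TENA2560. The largest share, 25.0% of the P05 counts of Col1a1, lay in R10 of TENA2560.

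In the 16 Col1a1 pools, Col3a1 was at 10 CPM or more in 14, Col1a2 in 14, Col5a2 in 14, Col6a2 in 13, Col14a1 in 13, Col4a1 in 10 and Col9a1 in 5. Transcripts of fibroblasts lay in the same pools: Dcn (decorin) and Lum (lumican), which encode proteoglycans that bind type I fibres, were at 10 CPM or more in 12 and 12 of the 16. The 7 pools with Col9a1 or Col11a1 alone had Col4a1 in 5, Col5a2 in 4, Sox10 in 5 and Col3a1, Col6a1, Dcn and Lum in 0. Sox10 was also at 10 CPM or more in 54 of 55 Tnc P18 pools. Of the 9 remaining pools 5 had Ptprc, the leukocyte gene for CD45, at 10 CPM or more, and 1 had Col4a1.

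Markers of other cell types moved with the collagens. Over the 5 P05 sums, the summed level of 10 fibroblast markers ran from 40.2 to 10165 CPM, with 10 of 10 averaging 10 CPM or more, against 0.147 to 9.19 in P18, with 0 of 10 and Lum, Dpt, Islr and Thy1 at 0. The 10 leukocyte markers summed to 27.3 to 13509 CPM in P05 and 7.00 to 39.1 in P18, where Ptprc and Adgre1 were at 0. The 10 endothelial markers summed to 0.346 to 424 and 1.08 to 2.87 CPM. The 8 myoepithelial markers summed to 43.2 to 1067 and 31.5 to 519 CPM. The 9 markers of pericytes and smooth muscle summed to 0 to 68.8 and 9.12 to 35.6 CPM. The part of these cell types in the rise of the called members was not tested. With libraries holding Ptprc at 10 CPM or more left out, 11 members were called, the 9 among them. This filter used Ptprc alone and no fibroblast or endothelial marker, so the count does not measure the part of these cell types.

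**Figure D4:**
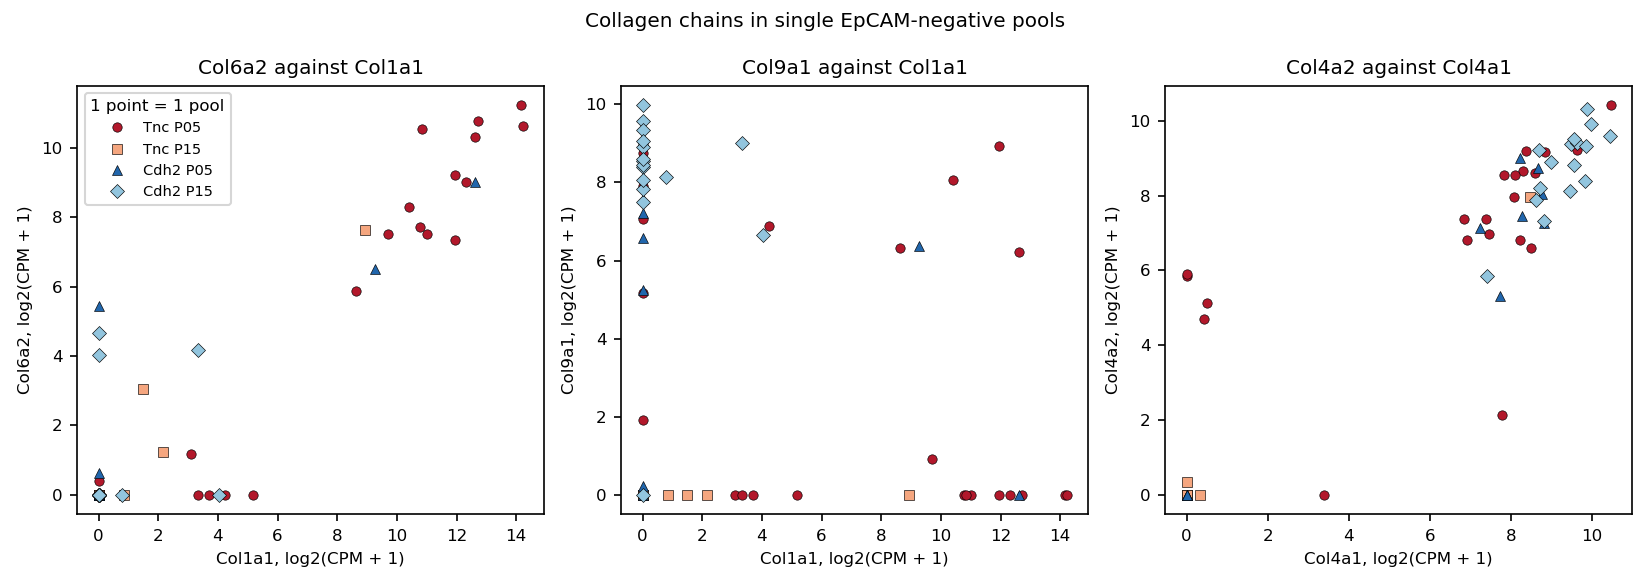
Scatter plots of log2(CPM + 1) in single EpCAM-negative pools (1 point each, 32 Tnc P05, 12 Tnc P15, 10 Cdh2 P05 and 16 Cdh2 P15), for Col6a2 against Col1a1, Col9a1 against Col1a1 and Col4a2 against Col4a1. Cdh2 P15 pools lie high in Col4a1 and Col4a2, low in Col1a1, and high in Col9a1 except for R6 of Cdh1739, at 0. The P05 pools highest in Col1a1 are also high in Col6a2.

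Across the 32 P05 pools, the members most like Col1a1 were other chains of types I, III and VI. By Spearman's rho of log2(CPM + 1), Col1a2 stood at 0.92, Col3a1 at 0.91, Col6a1 at 0.90 and Col6a2 at 0.89, while Col4a1 was at 0.19, Col9a1 at -0.13 and Col9a2 at -0.48. The members most like Col4a1 were Col4a2 (0.89), Col5a2 (0.62), Col9a3 (0.61) and Col11a1 (0.56). Among 9056 other genes at 10 CPM or more in at least 5 pools, those most like Col1a1 were Serping1 (0.88), Timp1 (0.88), Mfap2 (0.86), Ctsk (0.86) and Csrp2 (0.86). Those most like Col4a1 were Sparcl1 (0.83), Chchd1 (0.80), Igfbp2 (0.80), Sdc3 (0.79) and Wdr5b (0.78). The pools come from 5 animals and share depth and cell content, so these values are descriptions.

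GFP-positive, EpCAM-negative P15 cells of the Tnc line had little collagen in most pools. Of 12 pools, 8 had no collagen chain gene at 10 CPM, and all 12 had Ptprc at that level. Ptprc was at 11.8 CPM in R4 of TENA2524 and at 76.9 CPM or more in the other pools. Col1a1 measured 123, 0.391 and 0 CPM in TENA2483, TENA2517 and TENA2524, and Col6a2 50.1, 0.782 and 0. A single pool, R3 of TENA2483, held 99.5% of the Col1a1 and 98.8% of the Col6a2 counts of P15, and without it the P15 means went from 41.0 to 0.332 and from 17.0 to 0.338 CPM. The 1 library of TENA2524 (R4, 508631 counts) had Col18a1 at 7435 CPM and Col4a1 at 289, and without it the P15 means were 33.1 and 0.0326.

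Against P18, Tnc P15 had 2 members called higher and 1 lower, where 0.198% of all genes were called higher and 0.53% lower. Col6a2 had 1458 counts against 0 in P18 (at least 11.91, edgeR adjusted p = 0.0274), and Col5a2 averaged 13.4 ± 11.9 against 0.429 ± 0.802 CPM (7.76 ± 1.72, edgeR adjusted p = 0.0329). Col9a1 (chromosome 1, 24177610 to 24252684), a chain of the type IX collagen that decorates type II fibres, had 0 counts over the 3 P15 sums and 39.0 ± 23.7 CPM in P18 (at most -9.20, edgeR adjusted p = 0.0347), lower in 3 of 3 animals. Without pool R3 of TENA2483, 1 member was called. Leaving out TENA2462, TENA2483, TENA2524 or TENA2560 left 0 calls, and without TENA2517 the 3 calls were Col1a2, Col3a1 and Col8a1, of which 0 were among the first 3. The 10 leukocyte markers summed to 3012 to 13665 CPM over the P15 sums. The 10 fibroblast markers summed to 2.61 to 377 CPM there, with 3 of 10 averaging 10 CPM or more and Fap and Dpt at 0, against 0.147 to 9.19 in P18, and reached 922 CPM in 1 pool. The part of either cell type in the result was not tested. At an unadjusted p below 0.05, 17 members were higher and 2 lower, against 15.2% of all genes in either direction, and DESeq2 called 14 higher and 3 lower, with 17.4% of all genes.

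Other members of Tnc P15 mostly owed their mean to 1 animal. Col1a2 measured 171, 0.0651 and 0 CPM, Col3a1 100.5, 0.130 and 0 and Col4a2 0.0347, 0 and 204 in TENA2483, TENA2517 and TENA2524. Between P15 and P05 of the Tnc line edgeR called 0 of 44 members, with 1 higher and 15 lower at an unadjusted p below 0.05. Over all genes, edgeR called 0.136% in either direction and 10.3% had an unadjusted p below 0.05. DESeq2 called 2 members higher and 11 lower, with 14.2% of all genes. Col1a1 was lower in P15 than in P05 in 3 of 3 animals (-5.68 ± 2.08, edgeR adjusted p = 0.310).

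Type IV and type IX chains were high in GFP-positive, EpCAM-negative P15 cells of the Cdh2 line. Col4a1 measured 656, 575 and 455 CPM in Cdh1624, Cdh1654 and Cdh1739, and averaged 1.18 ± 2.58 over the 5 P18 sums (10.77 ± 3.67, edgeR adjusted p = 0.962). Col4a2 measured 532, 434 and 373 CPM and averaged 17.4 ± 37.3 in P18 (7.06 ± 3.48, edgeR adjusted p = 1), where Cdh1624 gave 84.2 CPM from 2 libraries. The P15 sums lay above the P18 sums for both genes, with no overlap. All 16 P15 pools had Col4a1 (168 to 1384 CPM, median 729) and Col4a2 (56.6 to 1275, median 539) at 10 CPM or more.

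The other type IV chains were lower in level. Col4a5 measured 71.5, 64.7 and 54.4 CPM in Cdh2 P15 (8.65 ± 7.28 in P18), and Col4a6 39.9, 16.0 and 37.0 (6.79 ± 6.20). Col4a4, whose protein joins Col4a3 in the network of the kidney, measured 5.65, 7.94 and 12.2 CPM (0.320 ± 0.348). In 5 of the 6 type IV genes the P15 sums did not overlap the P18 sums, Col4a3 being the exception with 6.43, 0 and 11.2 CPM.

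Cartilage collagens were present in the same cells. Col9a1 measured 431, 339 and 257 CPM in Cdh2 P15 against 67.8 ± 51.0 in P18 (2.12 ± 1.61), and Col9a3 (chromosome 2, 180597790 to 180622189) 264, 209.5 and 203 against 17.2 ± 22.2 (5.04 ± 2.72). Col9a2 varied more, with 13.6, 25.2 and 131 CPM. Col11a1 (chromosome 3, 114030540 to 114220718) measured 246, 193 and 137 CPM against 68.0 ± 65.0, overlapping because P18 of Cdh1654 had 179. Col2a1, the type II chain, measured 0.0138, 27.1 and 9.23 CPM and Col11a2 16.8, 12.8 and 0, each with 1 animal near or at 0.

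Genes of several other classes were also apart from P18 in these cells. Col5a2 measured 184, 115 and 182 CPM against 0.290 ± 0.645 (10.77 ± 2.43, edgeR adjusted p = 0.317). Col16a1 measured 91.9, 124 and 76.1 against 9.99 ± 14.9 (5.46 ± 2.44), and Col25a1, a transmembrane chain, 64.0, 65.2 and 51.5 against 1.76 ± 2.15 (6.76 ± 2.56). Lower in level were Col6a6, a type VI chain (13.9, 19.6 and 5.88 CPM), and Col23a1, a transmembrane chain (8.33, 6.07 and 9.15).

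Types I and III were low in Cdh2 P15. Col1a1 measured 3.52, 0.772 and 0.133 CPM, Col3a1 averaged 1.04 and Col6a3 was at 0 in all 3 sums, while 15 of the 16 pools had Col9a1 or Col11a1 at 10 CPM without Col1a1. Col5a2 was high with little of its usual partner: the ratio of Col5a1 to Col5a2 per kilobase was 0.0246 in Cdh1624 and 0.0275 in Cdh1739. In 4 Tnc P05 sums it was 0.287 to 1.60.

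The edgeR test called 0 of 44 members between P15 and P18 of the Cdh2 line, where 0% of all genes were called. Unadjusted p was below 0.05 for 7, all higher, against 3.60% of all genes, and DESeq2 called 7 higher and 3 lower, with 7.89% of all genes. The P15 sums all exceeded the P18 sums for 13 of 44 members, against 4.07% of all genes. By class these were 5 of 6 type IV, 3 of 9 fibril-associated, 2 of 4 transmembrane and 1 each of the fibrillar, beaded filament and basement membrane zone chains. The 10 fibroblast markers summed to 69.8 to 182 CPM over the P15 sums, with 2 of 10 averaging 10 CPM or more and Thy1 at 0, against 0 to 3.49 over P18, and to 10 CPM or more in 14 of the 16 pools, although Dcn alone reached 10 CPM in 0. The 10 leukocyte markers summed to 6.26 to 22.5 and 9.32 to 244 CPM, with Ptprc at 0 in P15. The 10 endothelial markers summed to 0.0844 to 0.911 CPM over the P15 sums and 0.900 to 4.11 over P18. At 10 CPM or more, Sox10, a gene of neural crest and mammary progenitor cells, was found in 14 of the 16 and also in 46 of the 50 Cdh2 P18 pools. The 8 myoepithelial markers summed to 949.8 to 1067 CPM over the 3 P15 sums and 22.8 to 222 over P18, with Krt14 and Krt17 at 0 in P15. Their part in the result was not tested.

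**Figure D5:**
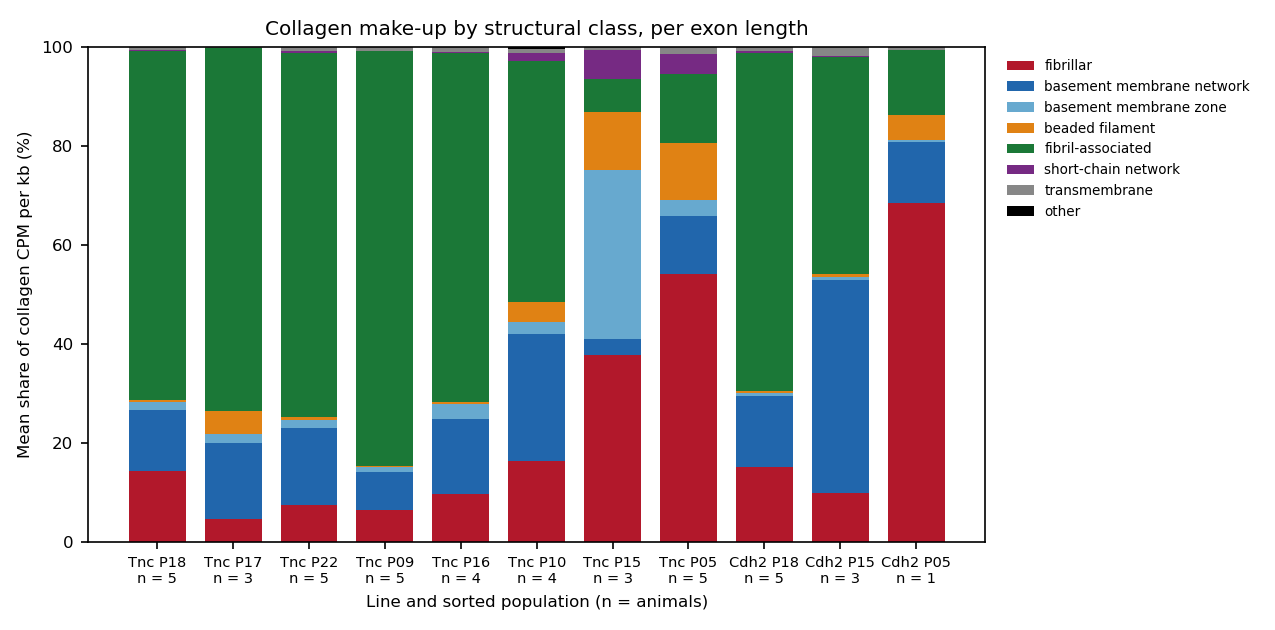
Share of each collagen class in the summed CPM per kilobase of each population, as a mean over animals stacked to 100%. Fibril-associated chains hold 84.0% in Tnc P09, fibrillar chains 54.1% in Tnc P05, and type IV chains 43.0% in Cdh2 P15.

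P05 of the Cdh2 line, known from 1 animal, held both fibrillar and type IX collagens. Col1a1 measured 1804 CPM, Col1a2 1233, Col3a1 1607, Col5a2 208 and Col6a2 165. One of the 10 pools, R8, held 92.2% of the Col1a1 counts, and without it Col1a1 was at 168 and Col3a1 at 60.0 CPM. Of the 10 pools, 2 had Col1a1 at 10 CPM or more, 6 had Col9a1 or Col11a1 without it, and the other 2 had Ptprc. Of the pools with Col1a1, R8 had Col4a1 and Col9a1 at 0, while R10 held both kinds, with Col1a1 at 619.6, Col3a1 at 221, Col4a1 at 311, Col9a1 at 81.7 and Col11a1 at 114 CPM. In the 6, Col4a1 ran from 149 to 445 CPM, Col9a1 from 37.2 to 567 and Col11a1 from 118 to 789, and Col1a2, Col3a1 and Dcn were at 0. Col11a2 (19.4 CPM), Col20a1 (14.0), Col4a4 (13.4) and Col23a1 (12.7) had their highest population mean here. Against Cdh2 P18 edgeR called 0 of 44 members and 0% of all genes, with 12 members higher at an unadjusted p below 0.05 (2.13% of all genes) and 9 called higher by DESeq2 (5.28% of all genes). The fibroblast markers summed to 1082 CPM in P05 (6 of 10 at 10 CPM or more, Pi16 at 0) against 0 to 3.49 in P18, the leukocyte markers to 3178 (10 of 10) against 9.32 to 244 and the myoepithelial markers to 855 (4 of 8, Krt5, Krt14 and Krt17 at 0) against 22.8 to 222, and their part in these levels was not tested. The lone P05 sum is assumed to vary like the other groups.

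In the populations with surface EpCAM, fibril-associated chains were the largest class per kilobase in each sum but that of P10 in TENA2517. By its mean, Col9a1 was the highest member per kilobase in P18, P17, P22, P09, P16 and P10 of the Tnc line and in P18 of the Cdh2 line, at 10 CPM or more in 42 of 55 Tnc P18 pools, 45 of 48 P09 pools and 42 of 50 Cdh2 P18 pools. Its level was 12.2, 52.4, 19.4, 70.1 and 41.1 CPM in the 5 Tnc P18 sums and 64.7, 144, 118, 177 and 115 in P09 of the same animals. P09 was higher in 5 of 5 animals although the groups overlapped. It averaged 62.2 ± 30.9 in P22, 94.4 ± 66.5 in P16, 82.4 ± 88.8 in P10 and 44.3 ± 35.5 in P17, means that differ by less than the SD of P10. The P10 animals differed: Col9a1 measured 12.4, 172, 0.130 and 145 CPM in TENA2462, TENA2483, TENA2517 and TENA2524, and fibril-associated chains held 1.25% of collagen per kilobase in TENA2517. In TENA2462, Col11a1 (81.5 CPM) and Col4a6 (62.3 CPM) were present beside the low Col9a1.

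Col9a3, Col16a1 and Col4a6 lay above P18 in each P09 sum, against 0.871% of all genes. Col9a3 averaged 48.0 ± 22.5 and 16.8 ± 7.82 CPM (log2 fold change 1.60 ± 1.58), Col16a1 25.8 ± 20.6 and 6.07 ± 2.46 (1.89 ± 1.39), and Col4a6 14.1 ± 4.07 and 6.44 ± 0.957 (1.16 ± 1.13). None passed the edgeR test, which called 0 members and 0% of all genes in P09 against P18, with 2 members higher and 3 lower at an unadjusted p below 0.05 (2.52% of all genes), and 3 higher and 3 lower by DESeq2 (3.46% of all genes). Col4a6 was also apart from P18 in P22 (17.1 ± 7.72 CPM) and P10 (33.1 ± 20.4), against 0.400% and 0.826% of all genes. In P22 the groups all but touched, with 7.193 CPM in P22 of TENA2524 and 7.174 in P18 of TENA2517. Col9a2, the remaining type IX chain, averaged 18.1 ± 14.8 in P18 and 48.8 ± 16.3 in P09.

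In P10, P16, P22 and P17 against P18, edgeR called 0 of 44 members each. The share of all genes called was 0.00296% in P10, 0.00296% in P16, 0% in P22 and 0% in P17. At an unadjusted p below 0.05, 12 members were higher and 0 lower in P10, 7 and 0 in P16, 2 and 2 in P22, and 1 and 4 in P17. Of all genes, 8.23%, 6.11%, 2.12% and 5.02% had such a p in the same order. DESeq2 called 5 higher and 1 lower, 3 and 0, 2 and 5, and 2 and 9 in that order, with 5.28%, 3.58%, 2.32% and 5.42% of all genes. All Tnc comparisons against P18 share its sums. In EpCAM-low P10, Col1a1 measured 10.3, 0.104, 22.5 and 2.76 CPM in TENA2462, TENA2483, TENA2517 and TENA2524, with 3 of 25 pools at 10 CPM or more. Col4a1 in the same order measured 32.0, 0, 36.8 and 0.435 CPM in P16.

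Between lines, edgeR called 0 of the 18 members tested in P18, with 0 at an unadjusted p below 0.05 (2.41% of all genes), 0 called by DESeq2 (0.0567% of all genes) and 0% of all genes called. Col9a1 averaged 67.8 ± 51.0 CPM in Cdh2 P18 and 39.0 ± 23.7 in Tnc P18, and Col11a1 68.0 ± 65.0 and 40.2 ± 31.7. Between the P15 populations edgeR called 0 of 23 members and 0% of all genes, with 9 higher and 1 lower in the Cdh2 line at an unadjusted p below 0.05 (10.6% of all genes) and 6 higher and 2 lower by DESeq2 (10.3% of all genes). Col9a1 had 55612 counts in Cdh2 P15 against 0 in Tnc P15 (at least 12.50, edgeR adjusted p = 0.119). Col16a1 averaged 97.2 ± 24.2 and 0.722 ± 0.785 CPM (7.69 ± 1.59, edgeR adjusted p = 0.119). The difference between P15 and P18 was itself compared between lines by an interaction term, which passed for 0 of 44 members and 0.00888% of all genes. At an unadjusted p below 0.05, 7 members had a positive and 6 a negative term, against 6.94% of all genes, and DESeq2 called 6 and 6, with 12% of all genes.

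Ratios between chains that share a protein were computed per kilobase over sums with at least 50 counts of each gene. Col4a1 over Col4a2 had a median of 1.09 (0.411 to 2.32, 24 sums), and 1.08 to 1.18 in the 3 Cdh2 P15 sums. Type I protein holds more α1 than α2 chains, and Col1a1 over Col1a2 had a median of 2.57 (1.36 to 4.06, 7 sums). Col3a1 over Col1a1 was 0.596 (0.381 to 0.788, 7 sums), Col6a1 over Col6a2 1.32 (0.644 to 2.95, 6 sums) and Col6a3 over Col6a2 0.151 (0.107 to 0.323, 5 sums). Type IX ranged more widely, with Col9a1 over Col9a3 at 1.57 (0.0485 to 8.20, 34 sums) and Col9a1 over Col9a2 at 1.69 (0.0688 to 20.1, 36 sums). In single pools, Col4a1 was at 10 CPM or more in 73 of 335, Col4a2 in 76 and both in 51, which is 69.9% and 67.1% of each. The starts of Col4a1 and Col4a2 lie 21 bases apart in RefSeq, on opposite strands, and their exons overlap. Whether reads were counted by strand is not given in the sources used here, so reads in that overlap could count for either.

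Genes that make, process, bind and degrade collagen were listed apart from the members (56 genes). In Tnc P05 against P18, 2 of 56 were called higher and 0 lower, both from the 14 genes of processing and crosslinking, where 0.352% of all genes were called higher. An unadjusted p below 0.05 was found for 30 of the 56, against 13.3% of all genes. Lox, the lysyl oxidase that crosslinks fibrils, averaged 63.3 CPM in P05 with 0 counts in P18 (at least 12.92, edgeR adjusted p = 0.0277), higher in 5 of 5 animals. Adamts2, which removes the N-propeptide of fibrillar procollagens, averaged 67.9 with 0 counts in P18 (at least 12.96, edgeR adjusted p = 0.0325). Of 18 genes of chain modification and folding 0 passed: the chaperone gene Serpinh1, which holds procollagen in the endoplasmic reticulum, averaged 80.3 and 9.99 CPM (edgeR adjusted p = 0.277). Sparc, a collagen-binding matrix protein, averaged 3223 and 10.2 CPM (edgeR adjusted p = 0.0586). No gene passed among 7 of secretion, 10 receptors and 7 of degradation, where Mmp14, a membrane collagenase, had a log2 fold change of 5.54 ± 1.46 (edgeR adjusted p = 0.0686). In Tnc P15 against P18, Lox (at least 12.05, edgeR adjusted p = 0.0329) and the collagenase gene Mmp13 (edgeR adjusted p = 0.0237) were called higher, as were 0.198% of all genes. In the other 11 comparisons 0 of those tested were called.

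RefSeq start windows were found for 35 of the 44 genes (38 windows, of 32851 in all). The 250 bases before the start had a median of 59% G and C for members and 52.4% for all windows. GGGCGG, read on both strands, was in the windows of 21 of 35 members against 32.7% of all windows, CCAAT in 13 of 35 (33.8%), TATAAA in 5 of 35 (12.4%) and CAGGTG, an E-box, in 4 of 35 (17.2%). The CCAAT genes included Col1a2, Col4a1, Col4a2, Col9a1 and Col11a1, which were high in different populations, and the TATAAA genes Col3a1 and Col17a1. These matches are letters in a window and no measure of binding.

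The 10 members below 10 CPM in each population had highest means between 0.195 CPM (Col10a1) and 9.69 (Col6a5), and Col10a1, Col19a1 and Col28a1 reached 10 CPM in 0 of 335 libraries. The others were Col4a3, Col6a4, Col13a1, Col22a1, Col24a1 and Col26a1. Exons of 10 members overlap a gene on the other strand, and their counts may hold reads of that gene.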

How the data were processed

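Counts per gene for 504 wells were deposited by the authors as 1 table, without normalization, and reads of 5-cell pools were made with a full-length protocol without molecular identifiers, per the labels' protocols. STAR, SAMtools, Subread, featureCounts and the build mm10 are named in the submitters' processing notes, with versions, settings and use of strand not given in the sources used here. Wells comprised 335 libraries that passed quality control, 152 that failed and 17 empty ones. The counts of passed libraries were summed per animal and population into 43 sums, of which 2 hold 1 library. Libraries held 313655 to 27849014 counts, and no 2 passed libraries were identical.

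One model over the 43 sums was fitted with edgeR 4.0.16 in R 4.3.3 (quasi-likelihood test, TMM factors, low-count filter by population, the animal as a block), which tested 33768 genes on 24 residual degrees of freedom. Populations of 1 animal are paired through the animal names in the labels, so the block is part of the main fit. Comparisons of lines within P18 and within P15 had fits of their own. P-values were adjusted over all genes by the Benjamini-Hochberg method with a threshold of 0.05. The SE of a log2 fold change is its size divided by the square root of the F statistic of its test. It is thus approximate, above all for genes near 0 in a group. In the main fit they rest on the spread left between the 43 sums of both lines once each animal's own level is taken out. In the fits within P18 and within P15 they rest on the spread between animals. DESeq2 1.42.0, other scaling, filters and sums, and fits without single animals or libraries were alternatives. The test was tried on simulated data for P05 against P18 of the Tnc line (6000 genes). Each simulated gene had a spread (dispersion) of 1 and the same mean share of counts in every sum before the change, without animal effects. Changed genes were drawn from those above a floor in counts. The test recovered 96% of genes raised by 6 on the log2 scale, 92% of those lowered by 6, 14% of those raised by 3 and 18% of those lowered by 3, and called 4 unchanged genes. These shares do not carry over to members near 0 in P18 or uneven between animals. Gene positions and exon lengths came from GENCODE M21 (GRCm38), and promoter windows from RefSeq (GRCm38.p6).

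The members and the lists of classes, markers and pathway genes were chosen with earlier results of these data known. Members are given in full where they were called, averaged 10 CPM or more in a population or belong to a heterotrimer, and the genes named as most like Col1a1 and Col4a1 are the 5 non-members with the highest Spearman correlation over the Tnc P05 pools.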

Additional observations from a re-analysis of the deposited data

Results flagged for a closer look

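Within a group, 1 animal stood far from the others in 4 of 30 sums of a collagen class. The rule, a gap to the next animal set against the range, marks about 1 in 20 among independent normal values. These sums share animals and were not tested for a normal spread, so that rate need not hold for them. In Cdh2 P18, Cdh1654 had a fibrillar sum of 240.6 CPM (next highest 79.65) and a fibril-associated sum of 341.2 CPM (next highest 113), with Col11a1, Col9a1 and Col9a2 high. In Tnc P05, TENA2483 had a short-chain sum of 617.4 CPM (next highest 145), most of it Col8a1. In Tnc P16, TENA2483, a sum of 1 library, had a transmembrane sum of 23.58 CPM (next highest 3.011).

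Wells outside the comparisons also held collagen reads. The 17 empty wells held 365 counts of Col11a1 and 5 counts of Col16a1, which lay in 2 wells, while 6 empty wells had 0 counts of any gene. Of the 152 libraries that failed quality control, Col1a1 was at 10 CPM or more in 18, Col4a1 in 12 and Col9a1 in 9.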

How the results depend on the processing

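Of 262 recomputed counts of called members, 232 were equal to or within 1.5 times the reported count. Most of the 232 belong to comparisons with a reported count of 0 that stayed at 0, so they say little of how stable the calls are. Where members were called, 15 of 21 counts stayed so for P05 and 12 of 20 for P15 against P18 of the Tnc line. These include fits that left out animals of the Cdh2 line. For members named with a call, 179 of 244 recomputed tests stayed past the threshold in the same direction, 65 no longer passed it and 0 reversed. In P05 against P18 of the Tnc line, 20 members were called by DESeq2 (14.4% of all genes), 0 in a fit of the 2 populations alone with the animal as a block, and 0 to 10 with 1 animal left out. In P15 against P18 of the Tnc line the counts were 17 by DESeq2 (17.4% of all genes), 8 with no replicate block, 0 in the fit of the 2 populations with the block, 1 without pool R3 of TENA2483 (an alternative chosen after seeing the data) and 0 to 4 with 1 animal left out. DESeq2 called 6 members in P10 (5.28% of all genes), 3 in P16 (3.58%), 6 in P09 (3.46%), 7 in P22 (2.32%) and 11 in P17 (5.42%) against P18, and 13 in P15 against P05 (14.2%). It called 10 in P15 (7.89%) and 9 in P05 (5.28%) against P18 of the Cdh2 line, 8 between lines in P15 (10.3%) and 12 for the interaction (12%). In P15 against P05, 1 was called with no replicate block, 1 with sums of at least 3 libraries and 3 without pool R3 of TENA2483. Between lines in P15, 1 was called with no filter on low counts. The interaction gave 1 with no replicate block and 0 to 1 with 1 animal left out, the 1 being without TENA2517. The cause of these differences was not tested. Leaving out libraries with Ptprc at 10 CPM or more gave no value for Tnc P15, since all 12 of its pools hold it. In data simulated for P05 against P18 of the Tnc line (6000 genes), 14% of genes raised and 18% of genes lowered by 3 on the log2 scale were recovered. Those data had a fixed dispersion of 1 and no animal effects, unlike the members here.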
